A study of Mus musculus with 39 samples.

Results

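Toll-like receptors are membrane proteins that bind molecules of bacteria, viruses and parasites and start an inflammatory response. The family was read here in subcutaneous adipose tissue of mice through 10 genes, Tlr1 to Tlr9 and Tlr12, chosen by name out of 29411 gene names on a 1-colour Agilent array. The 10 genes had 11 probes on 13 spots, and each probe's accession led to the same symbol in RefSeq. The family was picked with earlier results of these arrays known, because the diet difference of Tlr12 had opposite signs at early and late time points. The early and late values of Tlr12 are therefore a description and carry no test.

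All mice were C57BL/6J, entered the study after weaning at 3 to 4 weeks of age and ate one of 5 diets, with 30 animals per diet. LFC was a normal diet with 10% of its calories from fat (10 arrays). HFC was a high-fat, high-sucrose diet with 60% of its calories from fat (11 arrays), so that fat and sucrose cannot be told apart in a comparison of HFC with LFC. HF5, HF20 and HF75 were the HFC diet with 5, 20 or 75 µg of KAL-1, a botanical formulation (6 arrays each), and no array combined KAL-1 with the normal diet. LFC and HFC were measured at Day 6, Day 10, Day 14 and Week 0, called early here, and every 3 weeks from Week 3 to Week 18, called late, when the KAL-1 diets were measured too. HFC alone was also measured at Day 1, an array that has no LFC partner and is left out of the HFC ranges set beside those of LFC. The study's methods count weeks from Day 14, so that Day 14 and Week 0 are the same time, sampled in 2 runs. They are kept apart here because the labels name them separately. Each diet had 1 array per labelled time point, and nothing in the sources used here says if its RNA came from a single mouse or a pool. Below, n therefore is a number of arrays or of time points. Differences between diets are set against their spread over time points.

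Each receptor reports to the same small set of adaptors. Receptors of the cell surface recognise lipopeptides (Tlr2 with Tlr1 or Tlr6), lipopolysaccharide (Tlr4) and flagellin (Tlr5), and receptors of endosomes recognise RNA (Tlr3, Tlr7, Tlr8), DNA (Tlr9) and, in the mouse, the profilin of Toxoplasma (Tlr12). Nearly all of them signal through Myd88 to NF-kB. In adipose tissue they are studied mainly for the inflammation that comes with obesity, and macrophages are among the cells known to carry them.

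A level is the log2 of the processed signal of a probe minus the log2 of the 75th percentile of its array, so that 0 is the level of a bright probe and a difference of 1 is a doubling of signal. The array's own software called 49.3% to 87.8% of spots well above background. Adipocyte markers, 6 of 6 measured, had a mean level of 0.80 to 5.81 over the 39 arrays, above the 75th percentile of every array. Some arrays stood apart. The HF75 array of Week 3 had the highest mean of 5 skeletal muscle markers (7.62, against a median of -0.34 over all arrays) and the HF5 array of Week 12 the next highest (6.48), and the LFC array of Week 3 had the highest mean of 3 B cell markers (4.39, median -1.90) and of 6 T cell markers (0.70, median -3.29). In the deposited table of log2 ratios, the Week 12 columns of HF5 and HF20 matched each other's array (r of 0.999 both ways) and not the array of their own label (r of 0.663 and 0.666), while the other 26 columns matched their own. Values of HF5 and HF20 follow the array labels, and the exchanged reading is given beside the receptors named one by one.

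The probes are 60 bases long, and their first 30 bases are shown for the receptors on which the results turn. Tlr12 and Tlr2 had the lowest and the highest estimate of late against early time points, Tlr7 is the one closest to the macrophage markers, and the pair of Tlr3 probes is shown because their levels differed. No probe of a member shared a run of 20 bases with a probe of another gene.
Tlr12 probe: ccgcggggtatgtgacattcccaagatctt
Tlr2 probe: ccttggatgaaggccagcaggaagtgtttt
Tlr7 probe: acctaggacatgccttggtacctgaagttt
Tlr3 first probe: gggcagttaaaaacatcctctattaataga
Tlr3 second probe: taatgctcatttttgagacgtttatagaat

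RefSeq windows around the transcription start (build GRCm38.p6, 250 bases before to 50 bases after) were held for 8 of the 10 genes, 10 windows in all, and for neither Tlr4 nor Tlr7. The 250 bases before the start are shown for Tlr12, chr4:128618620-128618869 on the minus strand, and for Tlr2, chr3:83841609-83841858 on the minus strand. Capitals mark an NF-kB-like motif, GGG and TTCC parted by any 3 letters, on either strand.
Tlr12 upstream: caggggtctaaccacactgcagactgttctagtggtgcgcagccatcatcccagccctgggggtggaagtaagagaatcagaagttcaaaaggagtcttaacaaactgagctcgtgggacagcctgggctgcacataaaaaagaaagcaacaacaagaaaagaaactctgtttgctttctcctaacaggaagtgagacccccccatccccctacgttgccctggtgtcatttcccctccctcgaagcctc
Tlr2 upstream: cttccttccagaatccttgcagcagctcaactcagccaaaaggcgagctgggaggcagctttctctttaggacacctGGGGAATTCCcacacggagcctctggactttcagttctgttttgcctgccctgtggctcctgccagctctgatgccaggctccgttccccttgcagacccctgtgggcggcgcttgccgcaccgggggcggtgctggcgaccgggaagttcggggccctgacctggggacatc
The Tlr2 window held 1 NF-kB-like match, which began 173 bases before the start. A window of Tlr3 (211 bases before the start) and one of Tlr6 (99 bases before) held 1 each, and 5.56% of 32851 RefSeq promoter windows held at least 1. Of the other motifs searched on both strands, an interferon response element-like motif (GAAA, any 2 letters, GAAA; in 3.44% of all windows) had overlapping matches 116 and 110 bases before a start of Tlr6, GAGGAA (a PU.1 core, 28.3%) lay in windows of Tlr1, Tlr8 and Tlr9, and TATAAA (13.6%) lay in windows of Tlr6 and Tlr8. The Tlr12 window held none of these 4 sets of letters. A match is only a run of letters.

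Tlr12, which pairs with Tlr11 in mouse cells to sense profilin, was brighter with HFC than with LFC at every early time point and dimmer at 5 of 6 late ones. The early levels with LFC were -5.27, -4.61, -3.26 and -5.83 at Day 6, Day 10, Day 14 and Week 0. With HFC they were -4.12, -1.92, -1.95 and -4.57. The HFC array was the higher in all 4 pairs, although the ranges of both diets overlapped across time points.

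From Week 3 on the order was turned. LFC had levels of -2.56, -3.92, -3.04, -4.72, -5.75 and -4.13 at Week 3, 6, 9, 12, 15 and 18. HFC had -4.41, -5.66, -5.18, -6.63, -5.58 and -6.62 at the same weeks, and its arrays of Week 12 and Week 18 were not well above background. Only at Week 15 was the HFC array the brighter, by 0.17.

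As differences, HFC minus LFC was 1.15, 2.69, 1.31 and 1.26 at the 4 early time points, with a mean of 1.60 ± 0.73 (SD, n = 4). It was -1.84, -1.75, -2.14, -1.91, 0.17 and -2.49 at the late ones, with a mean of -1.66 ± 0.93 (SD, n = 6). The late mean minus the early mean was -3.26 (SE 0.55). This value chose the family and has no test here. It kept its sign under all 20 alternatives run, from -3.63 without Week 15 to -1.48 with another background correction (normexp). With normexp the early mean was 0.41 in place of 1.60 and the late mean -1.07 in place of -1.66. With Day 14 and Week 0 averaged as 1 time, the early mean was 1.71 ± 0.85 (SD, n = 3) and the late minus early value -3.37. For the 9 members in the fit this value ran from -3.26 to 0.83, with 4 above 0 (2 with normexp), where 49% of all genes were (39.7% with normexp). Over all 10 time points the difference of Tlr12 was -0.36 (SE 0.53), and 0.38 with array weights.

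**Figure D1:**
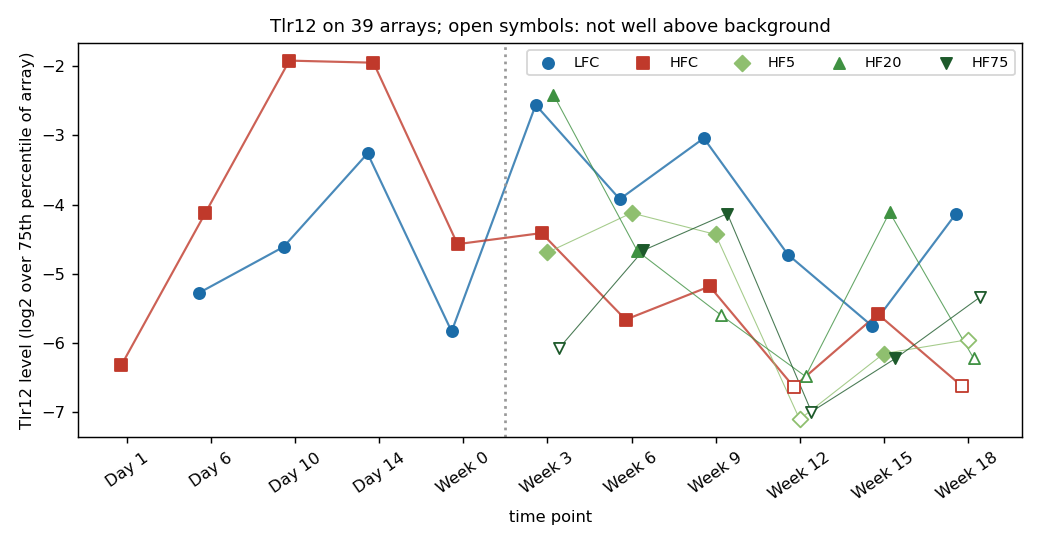
Level of Tlr12 (log2 over the 75th percentile of the array) on each of the 39 arrays against time point, with colour and symbol for diet and open symbols for arrays not well above background. The dotted line parts early from late time points: HFC lies above LFC at Day 6, Day 10, Day 14 and Week 0 and below it at 5 of the 6 later weeks.

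Between the periods the mean of LFC was higher late and that of HFC lower late. LFC had a mean of -4.74 ± 1.11 (SD, n = 4) early and -4.02 ± 1.15 (n = 6) late. HFC had -3.14 ± 1.40 early and -5.68 ± 0.86 late. The HFC array of Day 1, which has no LFC partner, read -6.32, lower than each of the 4 early HFC arrays that followed. In the KAL-1 diets, all late, the lowest level was -7.10, the median -5.47 and the highest -2.41, and 10 of 18 arrays were well above background.

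Tlr12 was also read by week within the late period. Its change per week over the 30 late arrays of all diets was -0.12 (SE 0.043), and -0.04 with normexp. These are a description, since the LFC and HFC arrays are among those that chose it. In the 18 KAL-1 arrays alone, which were not, the change was -0.12 per week (SE 0.061; limma, unadjusted p = 0.069, adjusted p = 0.997). In that fit 0 of 21092 genes passed an adjusted p of 0.05 (0%) and 622 an unadjusted p under 0.05 (2.95%).

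The 2 spots of the Tlr12 probe followed each other, with a median difference of 0.16 and r of 0.96 over 39 arrays. Several cell type markers differed between the same arrays. T cell markers (6 of 6) had means of -3.52 with LFC and -3.07 with HFC early, and of -2.08 with LFC and -3.50 with HFC late. B cell markers (3 of 6) had -1.74 and -2.26 early, and -0.40 and -2.40 late. Cd79a, Pax5 and Blk were left out, as they were well above background on fewer than 20 of 39 arrays. Skeletal muscle markers (5 of 5) had 0.93 and 1.58 early, and -0.66 and -2.43 late. Dendritic cell markers (3 of 6; Flt3, Xcr1 and Siglech were left out by the same rule) had -3.41 with LFC and -3.12 with HFC early, and -2.47 and -2.85 late. Neutrophil markers (6 of 6) had -2.37 and -2.10 early, and -0.28 and -1.20 late. As means over each period, T cell, dendritic cell, neutrophil and muscle markers, like Tlr12, were higher with HFC than with LFC early and lower late. Week by week this likeness did not hold throughout. T cell markers read -4.488 with HFC and 0.699 with LFC at Week 3, but -1.395 and -3.954 at Week 18. Neutrophil markers read 0.561 and 1.34 at Week 3, but 0.789 and -0.677 at Week 18. Macrophage markers were higher with HFC in both periods (0.53 and 1.60 early, 1.12 and 1.55 late). Without the LFC array of Week 3, which had the highest lymphocyte markers, the late HFC minus LFC difference of Tlr12 was -1.57 in place of -1.66. The part of these cell types in the Tlr12 values was otherwise not tested. No day of scanning held both early and late arrays, so time and scan day cannot be told apart. With scan day as a block the late minus early value was -3.36.

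For the other receptors the question was whether their level differed between LFC and HFC at the 10 time points they share. None of the 8 that could be tested passed limma's adjusted test, and neither did any of 19876 genes (0%). At an unadjusted p under 0.05 there were 0 of these 8 receptors and 1165 genes (5.86%). The estimates of Tlr1 to Tlr7 were above 0 and those of Tlr9 and Tlr12 below, but with the normexp background correction 6 of the 9 were below 0, when the median of all genes was -0.14. Across all genes, 45.3% of estimates were above 0 with the main scaling and 33.8% with normexp.

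**Figure D2:**
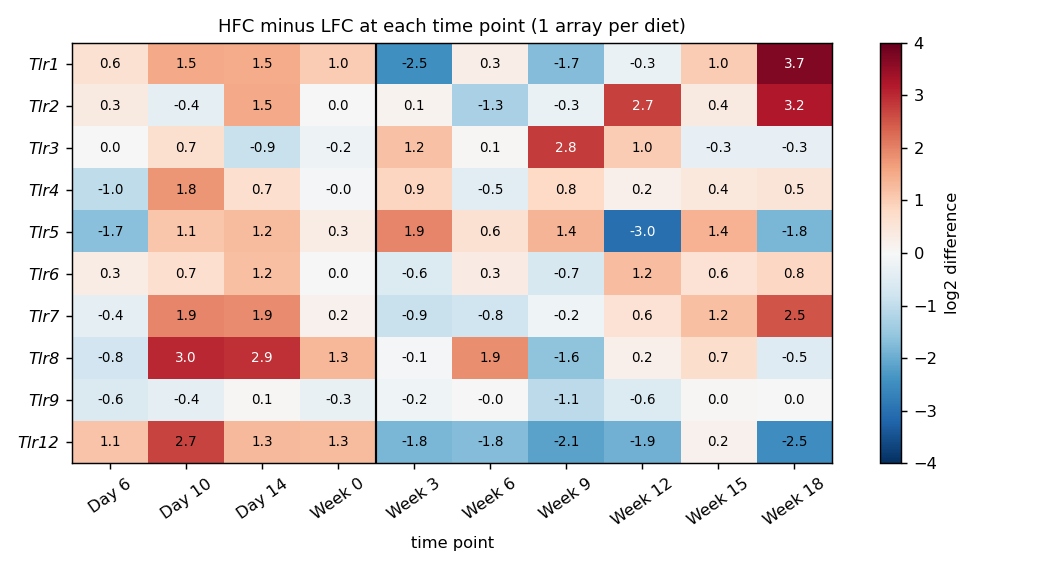
HFC minus LFC level (log2) of each of the 10 receptors at each of the 10 time points with both diets, 1 array per diet; red is higher with HFC, blue lower, and the line parts early from late. Tlr12 changes colour at the line, and Tlr1 and Tlr6 are above 0 at all 4 early time points but mixed later.

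Tlr2, which pairs with Tlr1 or Tlr6 on the cell surface to bind bacterial lipopeptides, was well above background on all 39 arrays. Its level ran from -0.43 to 3.26 with LFC (median 0.86, 10 arrays) and from -0.09 to 3.11 with HFC (median 1.80, 10 arrays). The diets overlapped over nearly their whole range. HFC was the higher at 7 of 10 time points, by 0.63 on average (SE 0.41; limma adjusted p = 0.812), with its widest differences of 2.72 at Week 12 and 3.20 at Week 18. Without Week 12 the mean difference was 0.40 and without Week 18 0.35.

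The estimate of Tlr2 by time was higher than that by diet. With HFC its level averaged 0.94 ± 1.09 (SD, n = 4) early and 2.21 ± 0.83 (n = 6) late, and with LFC 0.57 ± 0.68 and 1.40 ± 1.47. Late minus early was 1.04 (SE 0.54), which was not past the threshold (limma unadjusted p = 0.067, adjusted p = 0.622). On the same arrays neutrophil markers (6 of 6) had a mean of -2.37 ± 0.76 early and -0.28 ± 1.62 late with LFC, and of -2.10 ± 1.23 and -1.20 ± 2.32 with HFC (SD). Skeletal muscle markers (5 of 5) went the other way, from 0.93 ± 3.15 to -0.66 ± 2.46 with LFC and from 1.58 ± 3.84 to -2.43 ± 2.19 with HFC. Their part in the late minus early values was not tested. The other 8 members had estimates from -0.91 (Tlr12) to 0.46 (Tlr6). In this comparison 1 of 20605 genes passed (0.00485%), namely Nrk, a kinase gene outside the family, which was lower late (estimate -3.38, SE 0.52, limma adjusted p = 0.044) and was named because it was the only one. No gene passed when any 1 of 8 of the 10 time points was left out. At an unadjusted p under 0.05 there were 1711 genes (8.30%) and 0 of the 8 tested receptors. Of 9 members, 5 lay above 0 with each of the 3 scalings, where 48.5% of all genes did with the main one and 46.3% and 55.7% with quantile normalization and normexp.

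Tlr1 and Tlr6, the partners of Tlr2, spread unevenly between diets. Tlr1 ran from -5.99 to -0.18 with LFC and only from -3.53 to -1.51 with HFC, so that the LFC range enclosed that of HFC. The highest array of both genes was LFC Week 3, the array with the most lymphocyte marker signal. HFC minus LFC was 0.52 for Tlr1 (SE 0.49, adjusted p = 0.849 by limma). The lowest LFC level of Tlr1, at Week 18, was not well above background, and the difference was 0.16 without Week 18 and 0.85 without Week 3. For Tlr6 it was 0.40 (SE 0.22, adjusted p = 0.803), with HFC higher at 8 of 10 time points, and early HFC arrays (-2.85 to -1.88) and early LFC arrays (-3.17 to -2.77) overlapping narrowly. With normexp both estimates were below 0.

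Tlr4, the lipopolysaccharide receptor, was well above background on all 39 arrays, with levels from -2.53 to 0.10. It had a median of -1.32 with LFC and -1.01 with HFC. HFC minus LFC was 0.37 (SE 0.24, limma adjusted p = 0.815), and HFC was the higher at 7 of 10 time points. The widest difference was 1.77 at Day 10, and with normexp the estimate was 0.09. Over Week 3 to Week 18 the level of Tlr4 changed by 0.072 per week in the 30 arrays of all diets (SE 0.027; limma unadjusted p = 0.0117, adjusted p = 0.811). In the 18 KAL-1 arrays alone, which are part of the 30, the change was 0.092 per week (SE 0.029; limma unadjusted p = 0.0053, adjusted p = 0.997). In that fit 2.95% of genes had an unadjusted p under 0.05. Each scan day held arrays of a single week, so week and scan day cannot be told apart. Of 21092 genes in the 30 arrays, 0 passed the adjusted test (0%) and 1153 an unadjusted p under 0.05 (5.47%), and Tlr4 was the only one of 8 tested receptors among the latter.

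Tlr5, the flagellin receptor, was near the limit of detection, with 27 of 39 arrays well above background. Its level ran from -6.32 to -2.84 with LFC and from -6.44 to -3.76 with HFC, and the diets did not part. HFC minus LFC was 0.14 (SE 0.48, limma adjusted p = 0.963). The 2 spots of its probe differed by a median of 0.26 and by up to 5.79 on 1 array, so that single values of Tlr5 are uncertain.

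Of the endosomal receptors, Tlr7, a sensor of viral RNA, had levels from -3.22 to -0.52 with LFC (median -1.94) and from -2.35 to -0.70 with HFC (median -1.34). HFC was the higher at 6 of 10 time points, by 0.61 on average (SE 0.36, limma adjusted p = 0.803). The difference was 1.94 at Day 10, 1.90 at Day 14 and 2.52 at Week 18, where the LFC array was not well above background, and below 0 at Day 6 and from Week 3 to Week 9. Without Week 18 the mean difference was 0.39, and with normexp it was 0.17.

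Tlr9, the sensor of unmethylated DNA, was the member with the least spread and was above background everywhere. With LFC it ran from 0.28 to 1.53 (median 0.76) and with HFC from -0.31 to 1.56 (median 0.43). HFC was the lower at 7 of 10 time points, by 0.29 on average (estimate -0.29, SE 0.16, limma adjusted p = 0.803). Both diets peaked at Week 18, at 1.53 and 1.56.

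Tlr3, the sensor of viral dsRNA, had 2 probes. The brighter one ran from -6.03 to -2.68 with LFC and from -4.74 to -2.93 with HFC, and HFC minus LFC was 0.40 (SE 0.32, limma adjusted p = 0.831). The lowest LFC array, Week 9, was not well above background, and without that week the difference was 0.13. The other gave 0.22 (SE 0.35). Late against early the brighter probe gave -0.41 and the other 0.16. The probes differed by a median of 0.51 and by up to 3.65 on 1 array (r of 0.73 over 39 arrays). Over Week 3 to Week 18 the estimate of Tlr3 was 0.73 (SE 0.42, adjusted p = 0.850) and that of Tlr2 0.81 (SE 0.61, adjusted p = 0.854), the highest of the tested members in those weeks. Without Week 9 that of Tlr3 was 0.31, and that of Tlr2 ran from 0.33 without Week 18 to 1.23 without Week 6. With normexp Tlr3 was at -0.46 there and at -0.38 over 10 time points, so that its direction turned. In that comparison 0 of 21092 genes passed (0%), 1067 (5.06%) had an unadjusted p under 0.05, and 0 of the 8 receptors did. There 7 of 9 members were above 0, where 44.8% of all genes were. With normexp 2 of 9 were, where 34.4% of all genes were and their median was -0.22. Tlr12 was at -1.66 there, which is again no test.

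Tlr8, the other sensor of RNA next to Tlr7, was well above background on 5 of 39 arrays and passed no filter on low values. These were HFC Day 10, Day 14, Week 0 and Week 6, and HF20 Week 6. All 10 LFC arrays were not well above background. The measured mean was -6.77 over the 10 HFC arrays and -7.47 over the 10 LFC arrays, and since most of these were not above background no fold is given.

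**Figure D3:**
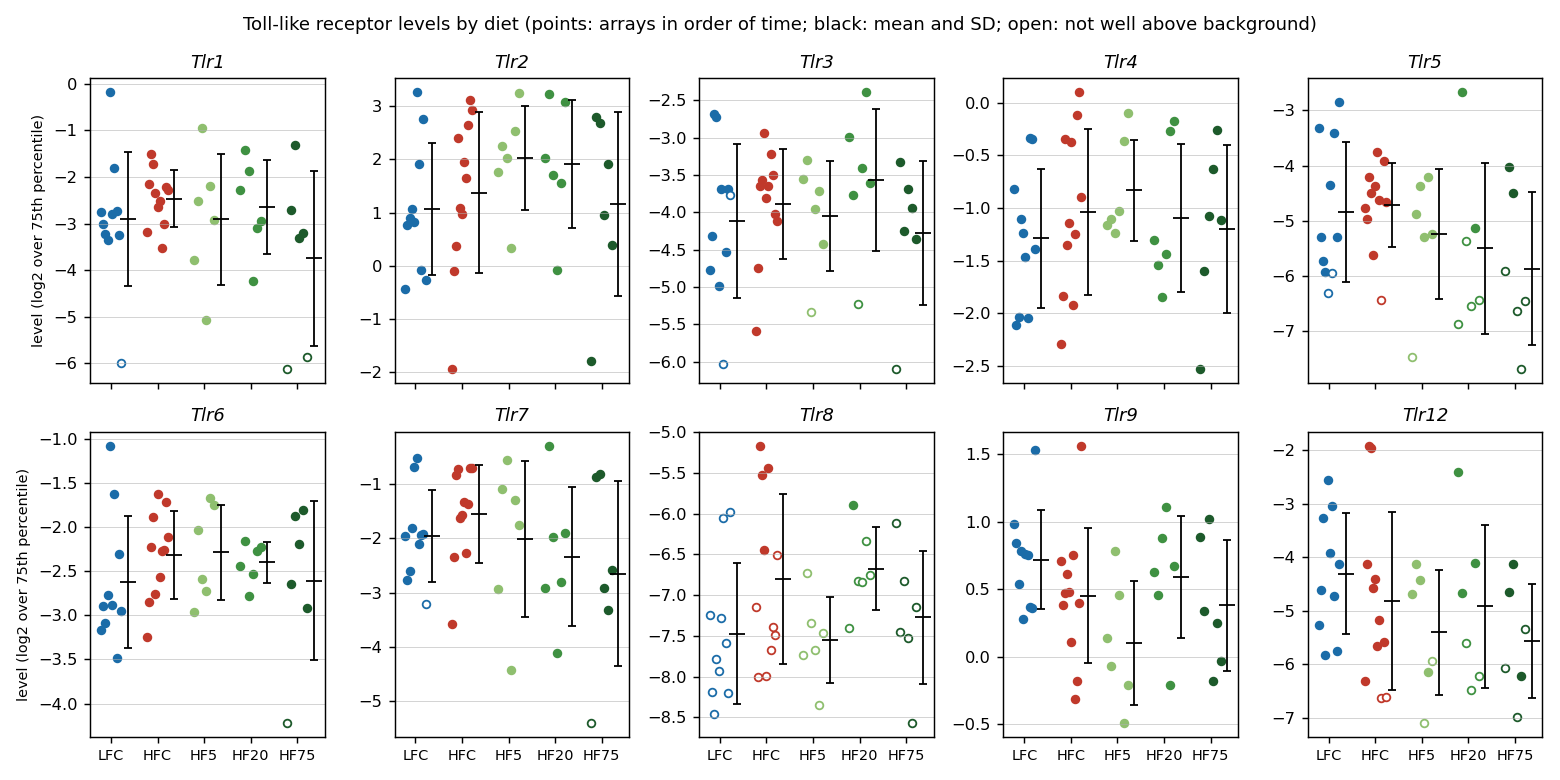
Level (log2 over the 75th percentile of the array) of the 10 receptors on every array, by diet, with points in order of time, black bars for mean and SD, and open points for arrays not well above background. Ranges of the diets overlap for all 10 receptors; Tlr8 is mostly open, and with HF75 the Week 3 array lies far below the rest for Tlr2, Tlr3, Tlr6 and Tlr7, as do 2 arrays for Tlr1.

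Adding KAL-1 to the high-fat diet gave receptor levels that lay on average below those of HFC with the main scaling, but not beyond the spread between weeks. With all 3 doses together against HFC over Week 3 to Week 18, 8 of 9 members had an estimate below 0, Tlr12 being the exception, while 52.6% of all genes were above 0. With normexp 3 of 9 were below 0, while 62.1% of all genes were above and their median was 0.19. Limma called 0 of 8 tested members and 0 of 21092 genes (0%). At an unadjusted p under 0.05 there were 0 members and 945 genes (4.48%). HFC arrays are shared by the comparisons with LFC and with KAL-1, so opposite signs in them are not independent.

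Tlr7 had the lowest estimate, -1.01 for the doses together (SE 0.50; unadjusted p = 0.057, adjusted p = 1 by limma), and the other tested members lay between -0.91 (Tlr5) and -0.03 (Tlr9). HFC late arrays read -2.27 to -0.70, HF5 arrays -4.44 to -0.55 (median -1.52), HF20 arrays -4.12 to -0.29 (median -2.40) and HF75 arrays -5.41 to -0.80 (median -2.75). Each dose had arrays both above and below HFC, and each was the lower in 4 of 6 weeks. By dose the estimates were -0.68 for HF5 (SE 0.62), -1.01 for HF20 (SE 0.62) and -1.33 for HF75 (SE 0.62), with adjusted p of 1, 0.997 and 0.866 from limma. Without Week 12, where the HF5 array reads -4.44 and has the second highest muscle markers of the 39 arrays, HF5 gave -0.20 and HF20 -0.67. Without Week 9 HF5 gave -1.16. When both Week 12 arrays in doubt swapped places, HF5 gave -0.63 and HF20 -1.07. With normexp Tlr7 was at -0.24 for the doses together, where Tlr2 was the lowest at -0.55, and at -0.36, 0.11 and -0.46 for HF5, HF20 and HF75, so that its HF20 estimate turned.

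HF75 had the lowest of the 3 dose estimates for 7 of the 8 tested members, all but Tlr9, and for 3 of 8 (Tlr1, Tlr2 and Tlr5) when its Week 3 array was left out. In HF75 against HFC, 8 of 9 members lay below 0 (4 of 9 with normexp) while 50.2% of all genes lay above (66.2% with normexp), and Tlr7 was the 1 of 8 tested members with an unadjusted p under 0.05 (p = 0.042, limma adjusted p = 0.866), where 5.02% of 21092 genes had one and 0 passed the adjusted test (0%). The HF75 array of Week 3, with the highest muscle markers, was the lowest of all 39 arrays for 5 members. Without it the HF75 estimate of Tlr7 was -0.81 (SE 0.58), that of Tlr2 -0.56 in place of -1.05, and that of Tlr5 -1.48 in place of -1.24. Tlr1 moved from -1.05 to -0.47, Tlr3 from -0.56 to -0.17, Tlr4 from -0.46 to -0.21 and Tlr6 from -0.52 to -0.14. The estimates of 8 of 9 members were still below 0 without it. With normexp, HF75 estimates turned to 0.12 for Tlr1, 0.50 for Tlr3, 0.44 for Tlr5 and 0.12 for Tlr6, and that of Tlr2 was -1.03.

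Tlr5 and Tlr2 at the lower doses showed an overlap of diets too. Tlr5 was not well above background on 4 of 6 arrays with HF20 and on 4 of 6 with HF75, against 1 of 6 with HFC late and 1 of 6 with HF5. Its estimates against HFC were -0.62 for HF5, -0.88 for HF20 and -1.24 for HF75 (SE 0.66 each; adjusted p of 1, 0.997 and 0.866 by limma). With normexp those of HF20 and HF75 turned, to 1.32 (adjusted p = 0.034, and 0.647 to 1.00 under the other alternatives) and 0.44. Without Week 3, where the HF5 array of Tlr5 was not well above background, HF5 gave -0.12 and HF20 -0.56. HF5 gave -0.97 without Week 12 and HF75 -0.74 without Week 15. With the Week 12 exchange HF5 gave -0.83 and HF20 -0.67. Tlr2 read 0.33 to 3.25 with HF5, -0.07 to 3.23 with HF20 and -1.79 to 2.79 with HF75, against 0.97 to 3.11 with HFC late. Its estimates were -0.18, -0.29 and -1.05 (SE 0.61 each; limma adjusted p of 1, 0.997 and 0.866). Those of HF5 and HF20 were -0.25 and -0.23 with the exchange, and 0.24 and 0.19 without Week 12. For the 5 remaining tested members, dose by dose, no adjusted test was passed with the main scaling, with 0% of genes called at either lower dose. With normexp, which called 8085 genes in HF20 against HFC, Tlr3 passed there at 1.45 in place of 0.16 (limma adjusted p = 0.0155). With the main scaling the second Tlr3 probe gave -0.92, -0.07 and -0.64 for HF5, HF20 and HF75 (SE 0.46 each). The first gave -0.33, 0.16 and -0.56. At an unadjusted p under 0.05, 0 of 8 members and 1.36% of genes were found for HF5, and 0 of 8 and 4.22% for HF20. Below 0 were 8 of 9 members for HF5 (5 with normexp) and 5 of 9 for HF20 (2 with normexp, 6 with the exchange), with 50.2% and 55.5% of all genes above 0 (59.8% and 60.6% with normexp).

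Tlr12 had estimates above those of HFC late under the main scaling. Its differences from HFC were 0.28 for HF5, 0.76 for HF20 and 0.11 for HF75 (SE 0.48 each), with the dose array the higher in 3, 5 and 3 of 6 weeks. By week the differences ran from -0.56 to 1.54 for HF5, from -0.42 to 2 for HF20 and from -1.66 to 1.28 for HF75. The HF20 and HF75 values were -0.07 and -0.22 with quantile normalization and 1.80 and 0.68 with normexp. With the exchange HF5 gave 0.38 and HF20 0.66, and without its Week 3 array HF75 gave 0.51. Since HFC late was part of what chose Tlr12, these are values without a test.

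**Figure D4:**
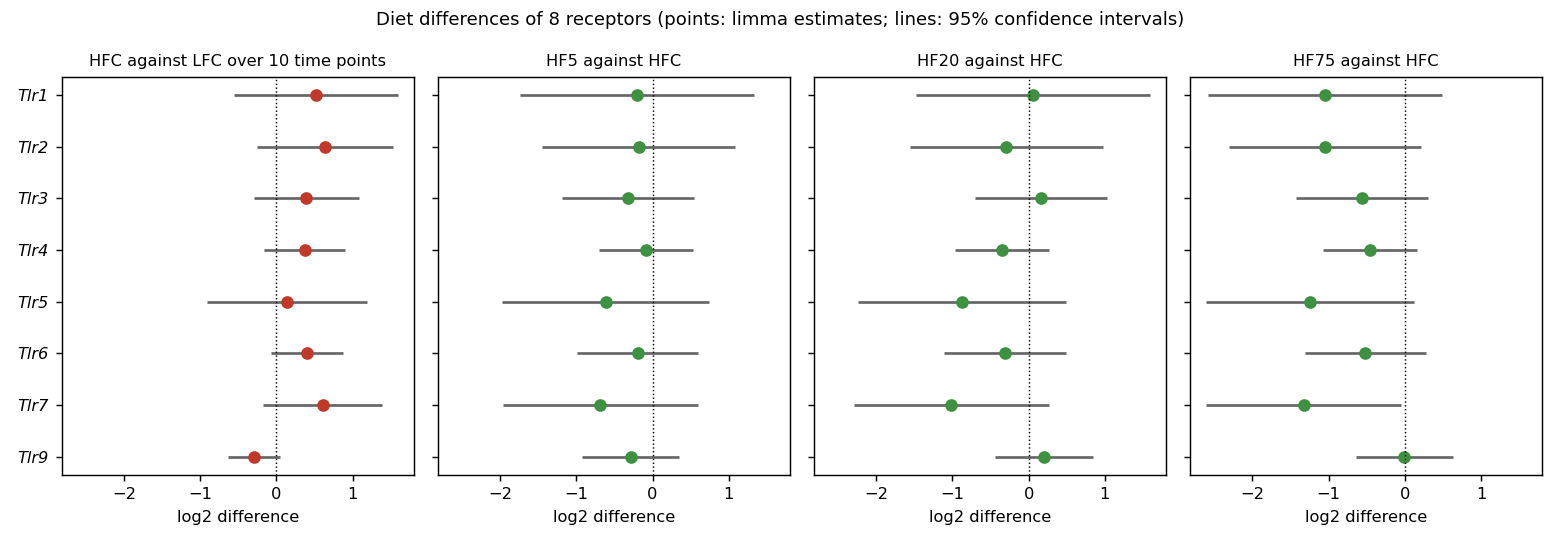
Estimated log2 differences of the 8 tested receptors with their 95% confidence intervals (limma), for HFC against LFC over 10 time points and for each KAL-1 dose against HFC over Week 3 to Week 18. Intervals cross 0 in all panels except for Tlr7 in HF75 against HFC, whose adjusted p is 0.866.

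Skeletal muscle markers were higher in the KAL-1 arrays than in the HFC arrays of the same week, by 2.55 ± 3.00 with HF5, 2.25 ± 2.25 with HF20 and 3.17 ± 4.34 with HF75 (SD, n = 6 weeks, higher in 5 of 6 each). With the Week 12 exchange they were 1.42 ± 2.50 for HF5 and 3.38 ± 2.36 for HF20, and without Week 3 that of HF75 was 1.63 ± 2.37 (n = 5). Macrophage markers were lower by 0.35 to 0.91 on average (means of -0.35 ± 1.02, -0.80 ± 1.13 and -0.91 ± 1.42, the last at -0.59 ± 1.33 without Week 3). In bulk tissue, fewer cells of a type and less RNA per cell cannot be told apart. The part of these shifts in the receptor estimates was not tested.

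The genes that work with the receptors were read from a list of 55 by role, of which 54 were found on the array by name. None passed the adjusted test in any comparison. In HFC against LFC over 10 time points, 50 were tested, 35 had estimates above 0 and 15 below (35 and 15 with normexp as well), with a median of 0.14 against -0.04 over all genes. Of all genes, 45.3% were above 0 with the main scaling. For each role the 3 genes with the highest mean level were chosen to be named.

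Among co-receptors, which hand ligands to Tlr4 and Tlr2 or steady their relatives, Cd14 had an estimate of 0.76 in HFC against LFC (SE 0.34, limma adjusted p = 0.803), Cd36 of 0.34 (SE 0.26) and Ly86 of 0.07 (SE 0.41). Of the proteins that fold and carry the receptors, Unc93b1 was at 0.30 (SE 0.24) and Hsp90b1 at -0.08 (SE 0.27). The adaptors Myd88, Ticam1 and Tirap were at 0.12, 0.26 and -0.11. Kinases and their partners ran from -0.21 to 0.35, with Irak1 at -0.10, Map3k7ip1 at -0.08 and Map3k7ip2 at -0.03. Transcription factors ran from -0.24 to 0.64 with a median of 0.05, with Nfkb1 at 0.18, Irf3 at 0.05 and Rela at -0.02. The inhibitors Tnfaip3, Nfkbia and Tnip1 were at 0.13, -0.14 and -0.07. None of these passed the adjusted test.

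Cytokines and enzymes that the pathway induces had the widest differences. In HFC against LFC 11 of 12 were above 0 (45.3% of all genes), with a median of 1.13, and 11 of 12 were with normexp. Of the 3 named by level, Ccl2 was at 1.27 (SE 0.94), Cxcl1 at 0.65 (SE 1.28) and Il6, the one below 0, at -0.33 (SE 1.60). In late against early 11 of 12 were above 0 (48.5% of all genes), with a median of 2.41 (1.87 with normexp). Cxcl1, a chemokine for neutrophils, was at 3.69 late against early (SE 1.83, limma adjusted p = 0.609), Il6 at 3.11 (SE 2.32) and Ccl2, which draws monocytes, at 2.01 (SE 1.14). Inhibitors of the pathway were above 0 in 6 of 7 in that comparison (5 of 7 with normexp), with Tnfaip3 at 1.95 (SE 1.09), Nfkbia at 1.41 (SE 0.66) and Tnip1 at 0.71 (SE 0.39). No gene of these groups passed the adjusted test, and early and late arrays were scanned on different days. The means of neutrophil markers were higher late and those of muscle markers lower late with both diets, as given above for Tlr2, and their part in these values was not tested.

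Over Week 3 to Week 18 alone, 12 of 13 induced genes were above 0 in HFC against LFC (12 with normexp), with a median of 1.86 (1.37 with normexp). Of all genes, 44.8% were above 0 with the main scaling. At an unadjusted p under 0.05 there were 5 of 13, and 5 of 52 over all roles, beside 5.06% of all genes, and none passed the adjusted test. This was the highest such count of induced genes. It was 2 of 12 over 10 time points (5.86% of all genes), 1 of 12 late against early (8.30%) and 0 of 13 for each KAL-1 dose against HFC. Cxcl1 was at 2.84 (SE 1.35), Ccl2 at 2.46 (SE 1.07, limma adjusted p = 0.850 for both) and Il6 at 1.74 (SE 1.68). On these arrays macrophage markers had means of 1.12 with LFC and 1.55 with HFC. Neutrophil markers had -0.28 and -1.20, and skeletal muscle markers -0.66 and -2.43. Their part in these values was not tested.

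In HF75 against HFC over the same weeks most estimates were below 0. All 13 tested induced genes were below 0 with the main scaling (11 of 13 with normexp), with a median of -1.57, and 43 of 52 genes of all roles were (37 with normexp). Of all genes, 50.2% were above 0 with the main scaling. At an unadjusted p under 0.05 there were 0 of the 13 and 2 of the 52, beside 5.02% of all genes. Over the 5 weeks without Week 3, where the array with the muscle markers lies, 11 of 13 and 36 of 52 were below 0, with medians of -0.97 and -0.21. Cd14 was at -1.24 (SE 0.57, unadjusted p = 0.042, limma adjusted p = 0.866), Cxcl1 at -2.35 (SE 1.35, adjusted p = 0.866), Ccl2 at -1.76 (SE 1.07) and Il6 at -1.24 (SE 1.68). HFC arrays are again shared with the comparison above.

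Several receptor levels varied with cell type markers across arrays. Over 39 arrays, the level of Tlr7 and the mean of 10 macrophage markers had Pearson's r of 0.92 and Spearman's rho of 0.90, each with a permutation p of 1e-05, the smallest that 100000 permutations can give (adjusted 0.00017 and 0.00025 over 100 relations of 10 members with 10 lists). Without the 2 arrays farthest from the median marker level r was 0.91, and within time points it was 0.93 (38 arrays). The permutations exchanged arrays freely, also between time points and scan days. All permutation p-values here therefore take arrays that share these as independent, and r within time points has no p. Tlr1 gave r of 0.69 and rho of 0.75 with the same markers (adjusted permutation p of 0.00017 and 0.00025; 0.67 without 2 arrays, 0.81 within time points). It was nearly as close to B cell (r 0.64, rho 0.59), T cell (0.62, 0.61) and fibroblast and progenitor markers (0.60, 0.61). Their adjusted permutation p was at most 0.0012, and r within time points was 0.70, 0.76 and 0.72. For Tlr2 r was 0.68 and rho 0.61 (adjusted permutation p of 0.00017 and 0.00062), with 0.52 without 2 arrays and 0.60 within time points.

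Tlr5 (r 0.50, rho 0.59, adjusted permutation p of 0.0072 and 0.0014; 0.57 without 2 arrays, 0.37 within time points) and Tlr6 (r 0.52, rho 0.46, adjusted permutation p of 0.004 and 0.015; 0.34 and 0.60) also varied with the macrophage markers.

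For Tlr3, Tlr6 and Tlr4 the highest r over all arrays was with another list. Tlr3 followed 4 endothelial markers (r 0.70, rho 0.72, adjusted permutation p of 0.00017 and 0.00025; 0.61 without 2 arrays and 0.54 within time points). Tlr6 followed 6 neutrophil markers (r 0.70, rho 0.68, adjusted permutation p of 0.00017 and 0.00025; 0.70 and 0.67). Tlr4 followed 3 dendritic cell markers (r 0.62, rho 0.54, adjusted permutation p of 0.00022 and 0.0041; 0.56 and 0.60), and within time points its r with macrophage markers was 0.69. For Tlr12, whose values chose the family, r is a description without a test. It was 0.42 with B cell, 0.40 with T cell, 0.22 with dendritic cell and 0.26 with macrophage markers over 39 arrays, and 0.35, 0.44, 0.51 and 0.22 within time points. 

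Of the 90 relations without Tlr12, 26 with r above 0 and 2 with r below 0 passed by both measures, with arrays permuted freely. The latter were those of skeletal muscle markers with Tlr2 (r -0.65, rho -0.53, adjusted permutation p of 0.0003 and 0.0041; -0.58 without 2 arrays, -0.37 within time points) and with Tlr3 (r -0.62, rho -0.61, adjusted permutation p of 0.00022 and 0.00062; -0.59 and -0.60). Tlr7 (r -0.50, adjusted permutation p = 0.0067) and Tlr6 (r -0.44, adjusted permutation p = 0.018) passed with muscle markers by r alone. Their rho was -0.36 and -0.30 (adjusted permutation p of 0.073 and 0.16), and without the 2 arrays farthest out r was -0.27 and -0.30. Tlr2 also varied with the neutrophil markers (r 0.52, rho 0.48, adjusted permutation p of 0.004 and 0.011; 0.52 and 0.54). Tlr9 had no relation past the threshold with macrophage, B cell, T cell, dendritic or neutrophil markers.

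**Figure D5:**
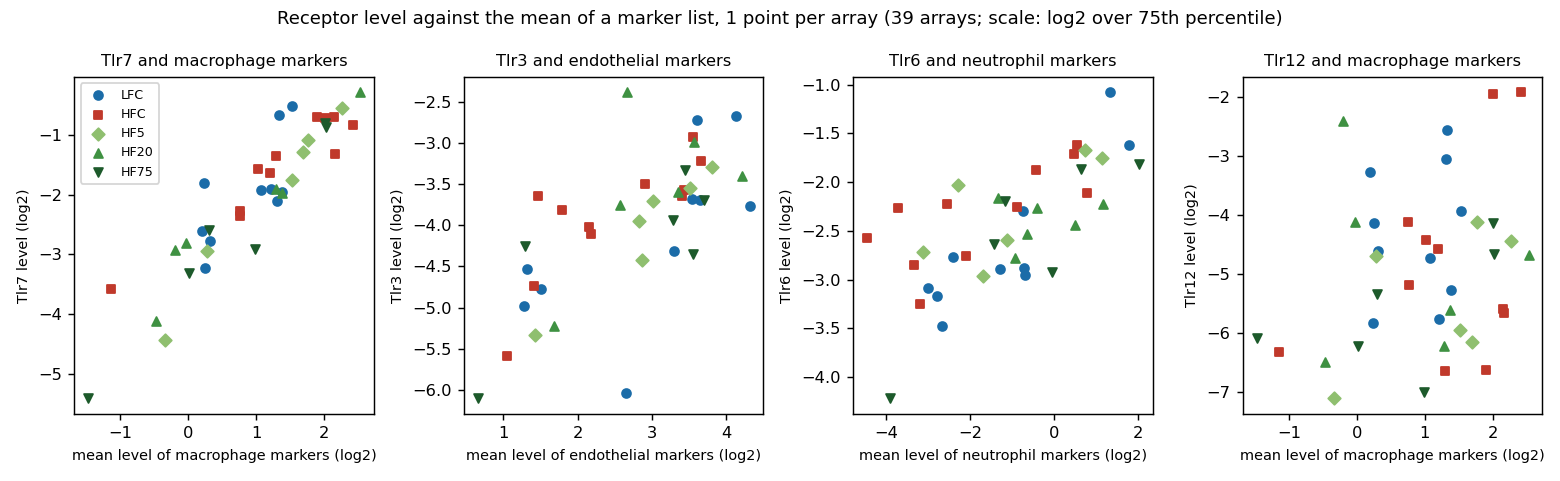
Level of a receptor against the mean level of a cell type's markers (both log2 over the 75th percentile of the array), 1 point per array, coloured by diet. Tlr7 rises with the macrophage markers over 39 arrays (r 0.92), Tlr3 with endothelial (0.70) and Tlr6 with neutrophil markers (0.70), while Tlr12 is spread over the range of macrophage markers (0.26).

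Macrophage markers themselves, 10 of 10, ran from 0.20 to 1.53 with LFC and from 0.76 to 2.42 with HFC, and HFC minus LFC was 0.68 ± 0.99 (SD, n = 10), above 0 at 7 of 10 time points. Their part in the HFC minus LFC values of Tlr7, Tlr1 and Tlr2 was not tested.

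Among themselves the members formed no single block. Over 39 arrays the highest correlations were Tlr1 with Tlr7 (r 0.76, 0.84 within time points), Tlr2 with Tlr7 (0.67), Tlr2 with Tlr6 (0.61) and Tlr1 with Tlr6 (0.58). The lowest was Tlr4 with Tlr9 (-0.45). These are descriptions, since the arrays share scaling and tissue make-up.

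By Pearson correlation among 19180 genes well above background on at least 20 arrays, the genes most like Tlr12 were Marco (0.70 over 38 arrays, 0.57 within time points), Tlr11 (0.67 over 39, 0.64 within) and Pglyrp2 (0.65 over 38, 0.63 within). Marco encodes a scavenger receptor of macrophages, and Pglyrp2 an enzyme that cuts bacterial peptidoglycan. The closest gene to Tlr2 was Cd14 (0.95), to Tlr7 C1qb (0.88), which is on the macrophage list, and to Tlr1 Vav1 (0.90), a signalling protein of blood cells. For Tlr3 it was Parp9 (0.85) and for Tlr4 Tctn2 (0.84). The closest genes to Tlr5 (Gm684, 0.71), Tlr6 (LOC100045165, 0.83), Tlr8 (Gga1, 0.57) and Tlr9 (LOC100044816, 0.84) are named as on the array.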

How the data were processed

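RNA of mouse subcutaneous adipose tissue was hybridised in 1 colour (Cy3) to 39 Agilent arrays, 1 per diet and time point. The authors deposited, for each array, the Agilent Feature Extraction output with a processed signal intensity per spot, background-subtracted and detrended within the array (version 10.5.1.1 per the file headers; the submitters' processing notes list 9.1). The deposited table of log2 ratios, made by the authors with GeneSpring GX, sets each array against the LFC array of its time point and was used only as an alternative.

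Members, gene lists and the results given one by one were chosen with earlier results of these data known. Levels were log2 intensities minus the log2 of the 75th percentile of the array over 43803 spots (107.9 to 1285.3 intensity units over arrays). Outlier-flagged spots were dropped (median 42, at most 4936 on HF20 Week 15), spots of a probe were averaged, and a gene took its probe with the highest mean (40628 probes). Genes well above background on at least 10 of 20 arrays (HFC and LFC), 8 of 20 (late against early) or 6 of 30 (Week 3 to Week 18) were tested. Limma 3.58.1 in R 4.3.3 gave two-sided p-values, adjusted by Benjamini-Hochberg over all genes tested (threshold 0.05). Time point was a fixed block for diets and a random block for time. Marker means used the genes of a list that were well above background on at least 20 arrays. Correlations were computed in Python 3.11.15 with 100000 permutations of all arrays, not kept within time points or scan days. The script was tested on simulated data. Arrays lay on 36 slides and 14 scan days, and their number limits the precision. Where nothing states separate animals, p-values measure only the spread between arrays. Alternatives were another background correction (normexp, offset 50), quantile normalization, other filters, probes one by one, outlier spots kept, an intensity trend, array weights, scan day or slide as block, no block, the ratio table, each time point left out, and, added after seeing the data, single arrays left out, the Week 12 exchange, Day 14 and Week 0 as 1 time for Tlr12, and the KAL-1 arrays alone. Named pathway genes were the 3 per role with the highest mean level.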

Additional observations from a re-analysis of the deposited data

Results flagged for a closer look

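The levels of the 8 tested receptors were set against Dixon's 95% critical value in LFC and the 3 KAL-1 diets, 32 groups in all (Tlr8 and Tlr12 were left out, and HFC, with 11 arrays, was not tested), of which chance alone flags about 1 in 20. An array far below the others of its group was found in 2. Tlr3 with HF75 read -6.10 at Week 3, where the next lowest of the 6 arrays read -4.35 (gap over range 0.632, above the critical value for 6 arrays). This is the array with the highest skeletal muscle markers, and Tlr3 was not well above background on it. Tlr5 with HF5 read -7.48 at Week 3, where the next lowest of 6 read -5.29 (gap over range 0.668). Tlr5 was not well above background on that array either, so both are values near the limit of detection.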

How the results depend on the processing

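Limits: each diet had 1 array per time point, scan days parted early from late arrays, Tlr5, Tlr8 and Tlr12 lay near background, and muscle and lymphocyte RNA differed between arrays. The replicate numbers of the arrays follow the order of deposition and pair nothing beyond the time point. Without the replicate block (no time point block) 0 genes and 0 members were called in each diet comparison.

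Of 1650 member values recomputed under 28 settings, 128 had the other sign, 116 of them with a main size under 0.5. Of 1306 member tests recomputed, 2 passed the threshold, both in HF20 against HFC with normexp, where 8085 genes were called in place of 0: Tlr3 at 1.45 in place of 0.16 (limma adjusted p = 0.0155, up to 1.00 elsewhere) and Tlr5 at 1.32 (adjusted p = 0.034, up to 1.00 elsewhere). The cause was not tested. Normexp moved the median of all genes to -0.142 in HFC against LFC, -0.216 over Week 3 to Week 18, 0.357 for HF20, 0.212 for HF75 and 0.185 for the doses together. Among the values it turned were HFC minus LFC of Tlr1 (-0.28), Tlr3 (-0.38; -0.46 over Week 3 to Week 18), Tlr5 (-0.58) and Tlr6 (-0.10), Tlr4, Tlr5, Tlr6 and Tlr7 in HF20 (0.24, 1.32, 0.64 and 0.11), Tlr1, Tlr3, Tlr5 and Tlr6 in HF75 (0.12, 0.50, 0.44 and 0.12), and, for the doses together, Tlr1 (0.39), Tlr3 (0.68), Tlr4 (0.047), Tlr5 (0.58) and Tlr6 (0.25). The late minus early value of Tlr12 was -1.48 with it. The ratio table turned Tlr5 in HFC minus LFC (-0.22), array weights Tlr3 for the doses together (0.071) and Tlr12 in HFC minus LFC (0.38), scan day as block Tlr2 in HF5 (0.19), slide as block Tlr2 in HF20 (0.13) and quantile normalization Tlr3 in HF20 (-0.11). Slide as block called 1 gene in HFC against LFC over Week 3 to Week 18 and could not be fitted to the 20 HFC and LFC arrays.

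Late against early called 0 genes with normexp, no filter, the filter on every array, every probe by itself or an intensity trend, 20 with array weights and 43 with arrays taken as independent. Change per week called 1 with quantile normalization, no filter, outlier spots kept or array weights and 20 with independent arrays. Leaving out single time points or arrays gave 0 to 5 genes late against early and 0 to 3 for change per week, and turned Tlr5 in HFC minus LFC (-0.060 to 0.49), Tlr1 late against early (-0.51 to 0.040), Tlr2 in HF5 (-0.38 to 0.24) and HF20 (-0.61 to 0.19), Tlr3 in HF20 (-0.14 to 0.59), and Tlr3 (-0.43 to 0.053) and Tlr9 (-0.28 to 0.25) for the doses together. None of the values so turned passed the threshold. Late against early called 3 genes without Day 14, 5 without Week 6 and 0 without each other time point, and change per week called 3 without Week 3.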

Other observations

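The HFC array of Day 1 entered no comparison between diets. It had the lowest Tlr2 level of the 39 arrays (-1.94) and read -3.58 for Tlr7, -2.29 for Tlr4 and -3.25 for Tlr6, each the lowest of the 11 HFC arrays. Its mean of skeletal muscle markers was 6.25 and its mean of macrophage markers -1.14, the highest and the lowest of the HFC arrays.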
